A study of Mus musculus with 22 samples.

Results

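Gene expression in the ear at 2 weeks after birth was compared between mice labelled Socs3 cKO and wild-type (WT) mice, both of the C57BL/6 strain. The 8 libraries with these labels, 4 of each genotype, were taken from 22 in the series, which also holds both genotypes at 8 and 10 weeks. In the mice labelled cKO, Socs3 was to be deleted only in cells that use keratin 5, the keratin of basal keratinocytes and of the outer layer of the hair follicle, so other cells of the ear keep the gene. The labels call the controls wild type and name no Cre line or floxed allele. RNA came from ear specimens, although the labels also name keratinocytes as the source. The keratinocyte keratin Krt14 was at 1662, 1656, 1633 and 1642 FPKM in WT, and the dermal collagen Col1a1 at 3932, 4435, 3614 and 3544 FPKM, so the WT libraries held both epidermal and dermal RNA. FPKM is the number of sequenced fragments scaled by the length of the transcript and the depth of the library. In such bulk samples, fewer cells of a type and less RNA per cell cannot be told apart. Whether each library is a different animal is not given in the labels, so the p-values below rest on library-to-library spread, part of which may be technical.

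SOCS3 is an inhibitor of cytokine signalling. Cytokines of the IL-6 family bind receptors that share the chain gp130 (Il6st), JAK kinases on the receptor then phosphorylate STAT3, and STAT3 switches on its target genes, Socs3 among them. SOCS3 protein binds the receptor and its kinase and shuts the signal down. In skin, STAT3 is known for its part in wound healing and in the hair cycle. After birth the follicles of mouse skin complete their growth and make the first coat: cells of the hair matrix divide at the base, take their orders from the dermal papilla beneath, and form the hair shaft and the inner root sheath that moulds it.

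The files list 21110 genes. Those at or above 1 FPKM in 4 or more of the 8 libraries numbered 13289 and were tested on the log2(FPKM + 1) scale with limma. A change is the cKO mean minus the WT mean on that scale, with its standard error (SE), and a gene was called higher or lower at a Benjamini-Hochberg adjusted p under 0.05. Changes of weakly expressed genes are understated by the added 1. By this rule 2916 genes (21.9%) rose and 3842 (28.9%) fell in the libraries labelled cKO, and the median change of all tested genes was −0.17. In 3045 genes (22.9%) all 4 libraries labelled cKO lay above all 4 of WT, and in 4432 (33.4%) they lay below. With 50.9% of all genes called, a count over a gene list is read here against these shares.

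Several features of the libraries moved with the genotype label. The share of all FPKM held by ribosomal protein genes was 11.4% to 11.8% in WT and 28.8%, 16.2%, 22.8% and 19.3% in the libraries labelled cKO replicates 1 to 4. The library labelled cKO replicate 1 stood apart from the other 3: its median FPKM over tested genes was 5.75, against 8.33 to 9.64 in those and 10.1 to 10.3 in WT. Change was related to base composition, with a Pearson r of −0.45 across genes between the change and the GC content of the transcript. When tested genes were ranked by GC content and cut into 4 equal groups, 44.1% of the lowest group were called higher and 8.11% lower, and 6.47% and 49.3% of the highest group. The median change of that highest group was −1.68 in the library labelled cKO replicate 1 and −0.43 to −0.53 in the other 3. When the trend on GC content was removed from each library, 25% of genes were called higher and 24.9% lower, and removal of a trend on transcript length gave 28.4% and 24.9%. Of the genes called, 43.1% were higher as deposited, 50.0% after the GC trend was removed, 53.3% after the length trend was removed and 41.9% with median-of-ratios scaling. Median-of-ratios scaling divides each library by 1 factor, taken from genes at 1 FPKM or more in all 8 libraries. It gave 22.3% higher and 30.8% lower. The median change of tested genes was then −0.12, against −0.17 as deposited, so a shift to lower values remained. Without the library labelled cKO replicate 1 to 4 in turn, 26.9%, 25.6%, 18.3% and 18.6% were higher and 34.8%, 36.3%, 23.4% and 26.4% lower. Without WT replicate 1 to 4 in turn, 16.2%, 16.9%, 16.2% and 16% were higher and 19.3%, 20.1%, 19.8% and 19.9% lower. The part of composition in the results below was not tested, and values after removal of the GC trend stand beside results that this moved. The Y-linked gene Eif2s3y was at 35.95 FPKM in WT replicate 4, at 104.8 and 58.8 FPKM among the libraries labelled cKO replicates 1 and 2, and close to 0 in the other 5, so both sexes were present in unequal numbers. With its level as a covariate the number of genes called at 2 weeks was 5526 (2552 higher and 2974 lower). In the 5 libraries with Xist, an RNA of female cells, which were WT replicates 1 to 3 and those labelled cKO replicates 3 and 4, 9244 genes were called, 29.5% of all genes higher and 40% lower. The other sex had 1 WT library, and no fit was run within it.

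**Figure D1:**
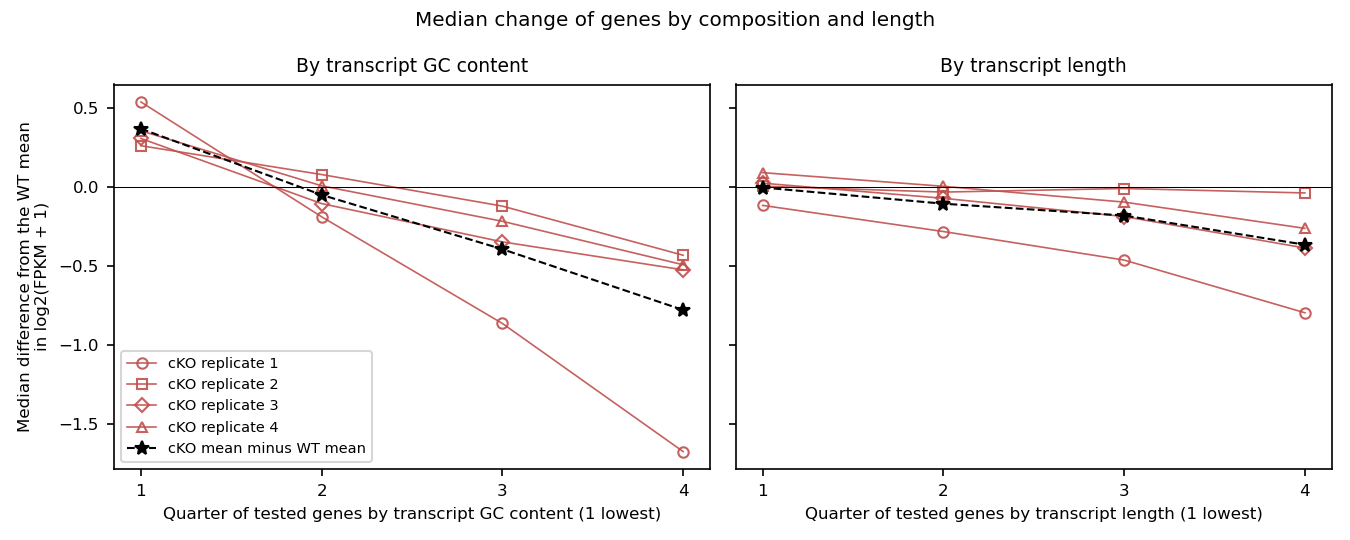
Median difference from the WT mean in log2(FPKM + 1) (vertical axis) of tested genes in 4 equal groups (horizontal axis, 1 lowest) by transcript GC content (left) and by transcript length (right). Each line is 1 library labelled cKO and the dashed line is the change between group means. All 4 libraries fall from the lowest to the highest GC group, and replicate 1 falls furthest, to −1.68.

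Socs3 itself was lower in only part of the libraries labelled cKO. It was at 10.2, 10.3, 10.3 and 9.71 FPKM in WT and at 1.25, 9.32, 12.6 and 3.51 FPKM among the libraries labelled cKO replicates 1 to 4. Replicates 1 and 4 lay below WT, replicate 2 just below, and replicate 3 above. The change was −0.86 (SE 0.496, adjusted p = 0.167 by limma). An exact permutation test, two-sided, gave p = 0.314, where 4 against 4 libraries allow no p below 0.0286. It was 0.22 (adjusted p = 0.526) with the GC trend removed and −1.24 to −0.38 without 1 library. Of all alternatives run it passed the threshold only with limma array quality weights (−1.13, adjusted p = 0.00019). Because replicates 2 and 3 lay near or above the WT level, directions below are between libraries by their label. In the RefSeq annotation (build GRCm38.p6) the window from 250 bases before to 50 after the Socs3 start lies at chr11:117969317-117969616 on the minus strand. It is shown because Socs3 is the gene named in the cKO label. The window holds a STAT palindrome (TTCNNNGAA, in capitals, searched on both strands), starting 154 bases before the start.
Socs3: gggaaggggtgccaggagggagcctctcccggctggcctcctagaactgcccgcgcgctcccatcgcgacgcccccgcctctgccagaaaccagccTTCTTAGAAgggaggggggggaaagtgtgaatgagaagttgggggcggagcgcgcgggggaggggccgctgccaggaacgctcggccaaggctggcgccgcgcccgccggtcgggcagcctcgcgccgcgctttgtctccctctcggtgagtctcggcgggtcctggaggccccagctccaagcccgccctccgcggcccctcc
This motif is in 8.47% of all 27025 RefSeq promoter windows of that length, and in 7 of the 32 windows found for the STAT3 response and acute phase genes described below (21.9%).

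Of 16 tested negative regulators of the pathway, which are SOCS family members, PIAS proteins and phosphatases, 2 were higher and 6 lower, beside 21.9% and 28.9% of all genes, with a median change of −0.52 (−0.33 after removal of the GC trend). Socs1, which blocks JAK kinases directly, was at 9.37, 9.47, 7.74 and 9.16 FPKM in WT and at 0.528, 2.91, 6.56 and 4.39 FPKM among the libraries labelled cKO. All 4 were below WT, and the change of −1.33 (SE 0.42, adjusted p = 0.0286) was lost when the GC trend was removed (−0.53, adjusted p = 0.0831), with Eif2s3y as a covariate (−1.04, adjusted p = 0.0504), with 0.1 in place of 1 as the added value, and without any of the 4 WT libraries. In the libraries with Xist it was −0.62 (adjusted p = 0.0131). Cish, a SOCS family gene switched on by STAT5, was at 9.73, 11.2, 9.87 and 10.1 against 1.61, 5.71, 4.2 and 4.61 FPKM. Again no library overlapped (−1.24, SE 0.27, adjusted p = 0.00689, and −0.62 after removal of the GC trend). The phosphatase gene Ptpn1 fell by 1.72 (SE 0.40, adjusted p = 0.00911), while Socs4 rose, from 1.08, 1.05, 1.39 and 1.45 to 3.37, 4.55, 2.99 and 3.93 FPKM (1.06, SE 0.14, adjusted p = 0.000582, and 0.60 after removal of the GC trend). Pias1, a repressor of STAT factors, was the other member called higher (0.72, SE 0.16, adjusted p = 0.00794). Without any 1 of the WT libraries, 2 members were called lower in place of 6.

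Of 17 ligands of the IL-6 and IL-10 families, 4 passed the filter, and none of the other 13, Il6, Lif, Osm and Il22 among them, exceeded 2.58 FPKM in any library. Clcf1, a cytokine of the ciliary neurotrophic factor receptor, was at 11.3, 11.6, 8.51 and 10.3 FPKM in WT and at 1.2, 2.85, 3.3 and 2.13 FPKM among the libraries labelled cKO (−1.80, SE 0.22, adjusted p = 0.000432). Cntf, another ligand of that receptor, rose from 1.4, 1.94, 1.36 and 1.24 to 6.17, 3.5, 4.47 and 3.7 FPKM (1.12, SE 0.17, adjusted p = 0.0015). The receptor's own chain, Cntfr, went from 17.9, 18, 20.3 and 19.6 to 0.151, 2.19, 3.29 and 1.94 FPKM. All 4 libraries labelled cKO were below 4 FPKM, and this was the largest change of the receptor chains (−2.93, SE 0.36, adjusted p = 0.000416).

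Among 12 tested STAT3-coupled receptor chains only Cntfr was called lower and only Osmr higher. Osmr, the oncostatin M receptor, was at 5.32, 4.87, 5.1 and 5.48 FPKM in WT and at 10.5, 9.25, 10.3 and 10.1 FPKM among the libraries labelled cKO (0.83, SE 0.12, adjusted p = 0.0011). The shared chain Il6st was at 29.7, 23.2, 23.1 and 30.5 against 16, 51.1, 21.2 and 31.7 FPKM and the groups overlapped (0.047, SE 0.32, adjusted p = 0.907). Without the library labelled cKO replicate 1, 4 chains were called higher and 1 lower, beside 26.9% and 34.8% of all genes. Without replicate 2, 3 were called lower (36.3% of all genes). In the libraries with Xist 3 were called higher and 3 lower (29.5% and 40%). Of the JAK kinases and STAT factors, 4 of 10 were lower and none higher, beside 28.9% and 21.9% of all genes. In the libraries with Xist 8 were lower and 1 higher, beside 40% and 29.5%. Tyk2 was at 11.3, 11.6, 9.87 and 11 against 0.933, 7.33, 3.91 and 4.33 FPKM (−1.39, SE 0.38, adjusted p = 0.0162, and −0.73 after removal of the GC trend). In Tyk2, as in most members of this list, replicate 1 was the lowest library. Jak3 (−1.23, SE 0.25, adjusted p = 0.00512) and Stat5a (−0.86, SE 0.32, adjusted p = 0.0484) lost their calls when the GC trend was removed (−0.28, adjusted p = 0.0767, and −0.29, adjusted p = 0.157). Stat5a also lost it with the length trend removed (−0.47, adjusted p = 0.0668), with Eif2s3y as a covariate (−0.74, adjusted p = 0.104), under other filters or another added value, and without any WT library or cKO replicate 3 or 4. Stat2 was the fourth (−1.07, SE 0.23, adjusted p = 0.00657). Stat3 was at 47.2, 47.8, 49.6 and 47.9 FPKM in WT and at 10.4, 40.5, 27.4 and 34.9 FPKM among the libraries labelled cKO, with all 4 below WT, and did not pass (−0.90, SE 0.36, adjusted p = 0.0618). It passed with median-of-ratios scaling (−0.85), in 1 fit over all 22 libraries, with array weights (−0.48, adjusted p = 0.000228) and in the libraries with Xist (−0.62, adjusted p = 0.0023). Without cKO replicate 2, 7 of the 10 were called lower, beside 36.3% of all genes. After removal of the GC trend 2 were lower and 1 higher, beside 24.9% and 25% of all genes. The count after that removal is therefore not read as a fall of the list.

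Target genes of STAT3 and acute phase proteins, which are secreted in inflammation, divided into a few large rises and many genes without a call. Of 30 tested, 10 were higher and 2 lower, with a median of 0.31 (0.69 after removal of the GC trend). A2m, a broad protease inhibitor, went from 1.1, 1.27, 0.624 and 0.525 FPKM in WT to 26.3, 29.9, 31.7 and 18 FPKM among the libraries labelled cKO. That is 30.1-fold on the means, with no overlap (3.86, SE 0.22, adjusted p = 6.27e-06). Serpina3n, a serine protease inhibitor of the acute phase, was at 8.28, 8.58, 7.67 and 6.41 against 67.8, 51.6, 71.9 and 96.4 FPKM (3.03, SE 0.20, adjusted p = 1.25e-05). Orm1, an acute phase carrier protein, rose from 47.1, 40.2, 52.9 and 57.6 to 427, 202, 340.5 and 304 FPKM (2.62, SE 0.23, adjusted p = 7.66e-05), and reads may be shared with its near copy Orm2. Lcn2, which withholds iron from bacteria, went from 1.32, 1.9, 2.54 and 1.59 to 14.9, 12.4, 15.2 and 16.2 FPKM (2.48, SE 0.17, adjusted p = 1.71e-05). In these 4 genes the lowest library labelled cKO exceeded the highest WT library several times over. Transcription factors of the list, named here after their values were seen, did not follow. Junb was at 53.1, 48.7, 52.3 and 54.8 FPKM in WT and at 8.41, 89.3, 166 and 32 FPKM among the libraries labelled cKO, which spread on both sides of WT (−0.19, SE 0.75, adjusted p = 0.839), and Bcl3 was lower (−1.21, SE 0.29, adjusted p = 0.00943, and −0.46 after removal of the GC trend). The count was 16 higher without cKO replicate 1, 4 lower without cKO replicate 2, and 19 higher and 3 lower after removal of the GC trend.

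**Figure D2:**
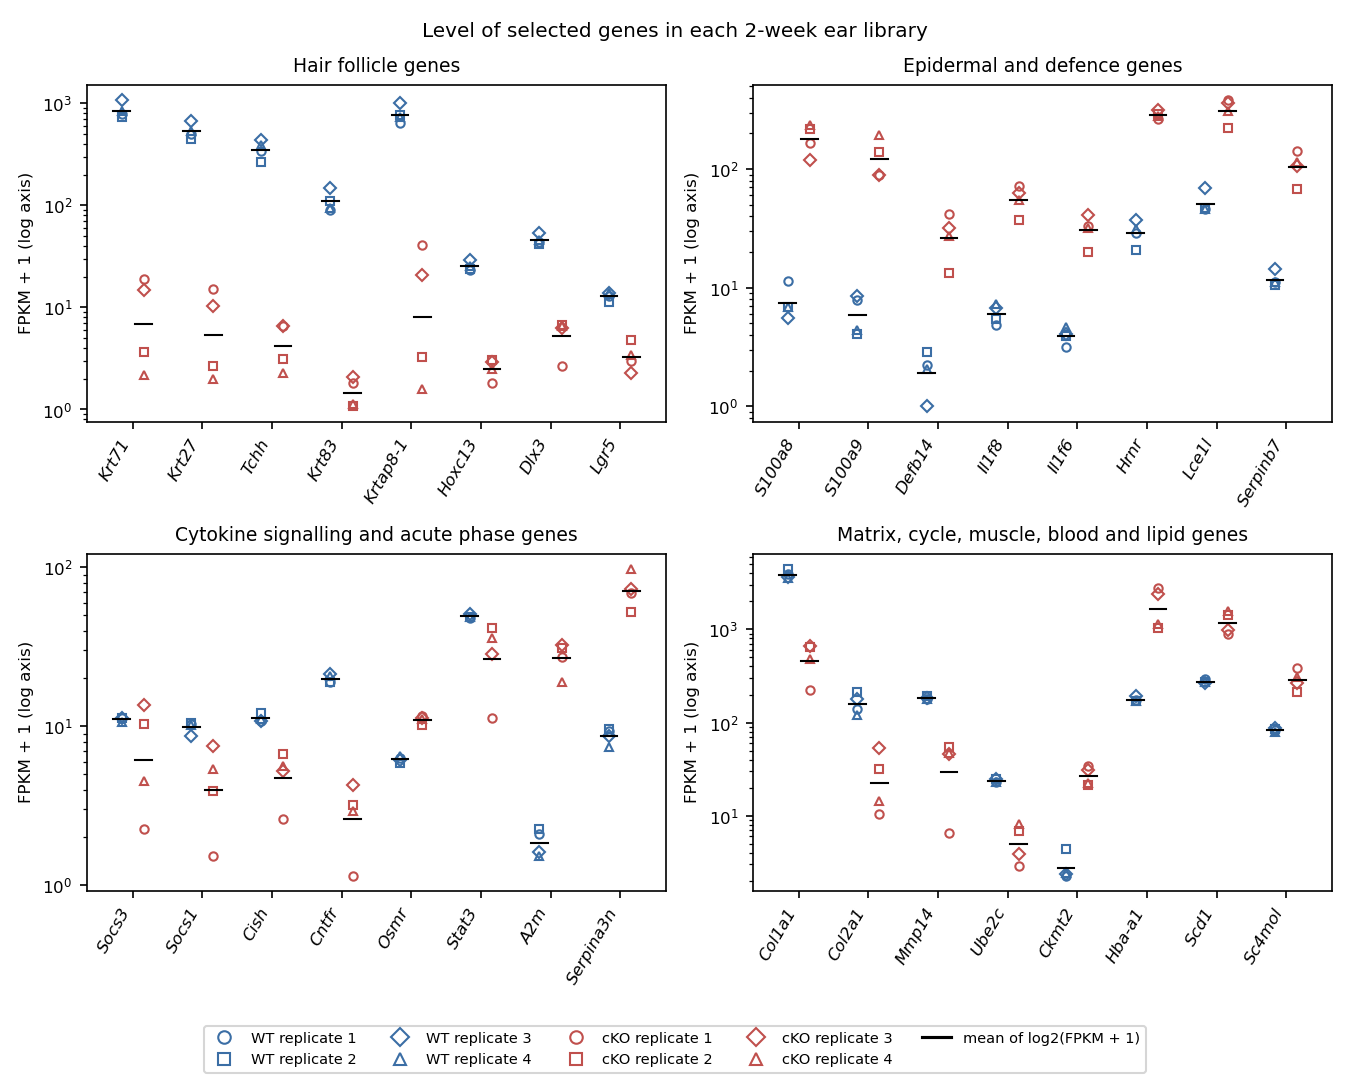
FPKM + 1 on a log axis of selected genes in each library, in 4 panels of hair follicle, epidermal and defence, cytokine signalling and acute phase, and matrix, cycle, muscle, blood and lipid genes. Blue symbols are WT and red symbols libraries labelled cKO, a symbol shape is a replicate number, and the bar is the group mean on the log2 scale. Hair genes lie far below WT and epidermal genes far above it in all 4 libraries labelled cKO, while Socs3 overlaps WT.

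Transcripts of the growing hair were almost missing from the libraries labelled cKO. The lists of the inner root sheath (13 tested), the hair shaft keratins (15 tested) and the keratin-associated proteins (46 tested) had 13, 14 and 46 members lower and none higher, with medians of −5.26, −5.79 and −4.32. With the GC trend removed these counts were 13, 14 and 46 and the medians −4.83, −5.10 and −3.82. Without the library labelled cKO replicate 1 they were again 13, 14 and 46. All hair genes called lower also had groups that did not overlap. The summed FPKM of the inner root sheath list was 2659.9, 2418, 3576 and 2849.8 in WT and 82.6, 53.5, 74.1 and 36.2 in the libraries labelled cKO.

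In the inner root sheath, Krt71 was at 784, 729.6, 1083 and 841 FPKM in WT and at 18.2, 2.69, 13.9 and 1.16 FPKM among the libraries labelled cKO. Replicates 1 and 3 held several times more than replicates 2 and 4, and all were far below WT (95.8-fold on the means; −6.95, SE 0.64, adjusted p = 9.65e-05). Krt27, its type I partner in the same layers, showed the same order, with 497, 446, 665 and 534 against 14.1, 1.67, 9.26 and 0.978 FPKM (−6.63, SE 0.60, adjusted p = 8.89e-05). Trichohyalin (Tchh), which hardens the sheath, was at 342, 264, 438 and 388 against 5.61, 2.15, 5.58 and 1.27 FPKM (−6.39, SE 0.36, adjusted p = 6.27e-06). Padi3, the enzyme that modifies trichohyalin, was at 45.4, 45.6, 61.4 and 49.3 against 0.142, 0.211, 0.395 and 0.057 FPKM, a ratio of means of 251, with replicates that lay close together (−5.42, SE 0.16, adjusted p = 4.66e-07).

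The promoter windows of Krt71 and Krt27 are shown because these genes had the largest falls of all named genes. Each holds 1 TATA box (TATAAA, in capitals), a core promoter element, starting 40 bases before the start in Krt71 and 15 before it in Krt27, and none of the LEF/TCF core motifs (CTTTGAA or CTTTGTT or CTTTGAT or CTTTGTA), AP-1 motifs (TGANTCA) or STAT palindromes that were also searched on both strands. Krt71 lies at chr15:101743048-101743347 and Krt27 at chr11:99351069-99351368, both on the minus strand of GRCm38.p6.
Krt71: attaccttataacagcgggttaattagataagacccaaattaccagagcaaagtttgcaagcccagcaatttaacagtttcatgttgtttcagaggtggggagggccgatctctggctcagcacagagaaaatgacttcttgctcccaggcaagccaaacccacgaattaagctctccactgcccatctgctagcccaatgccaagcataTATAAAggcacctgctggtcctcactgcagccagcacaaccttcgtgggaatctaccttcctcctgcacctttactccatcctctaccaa
Krt27: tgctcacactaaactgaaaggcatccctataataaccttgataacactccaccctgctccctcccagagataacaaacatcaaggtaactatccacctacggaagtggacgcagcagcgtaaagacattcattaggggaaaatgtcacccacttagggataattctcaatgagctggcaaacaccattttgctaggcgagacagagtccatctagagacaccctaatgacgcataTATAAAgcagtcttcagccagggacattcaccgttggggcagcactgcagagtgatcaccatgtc
A TATA box was found in 14.2% of all RefSeq windows of this length, in 6 of 12 windows of inner root sheath genes, in 6 of 10 of hair shaft keratins and in 36 of 43 of keratin-associated proteins (83.7%). A LEF/TCF core was in 16.9% of all windows, in 5 of 10 of hair shaft keratins and in 16 of 43 of keratin-associated proteins (37.2%). A match is a description of the letters and not evidence of binding.

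Of the hair shaft, Krt83, a cortical hair keratin, was at 90.2, 109, 148 and 94 FPKM in WT and at 0.808, 0.0745, 1.06 and 0.134 FPKM among the libraries labelled cKO (−6.23, SE 0.26, adjusted p = 1.81e-06). The highest WT library was replicate 3, as for most hair genes, and no library labelled cKO exceeded 1.1 FPKM. Krt81 (85.1, 107, 148 and 92.9 against 0.968, 0.195, 0.752 and 0.0329 FPKM), Krt31 (78.9, 96.7, 133 and 87.2 against 1.49, 0.188, 0.336 and 0.246 FPKM) and Krt86 (73.2, 90.8, 124 and 76.8 against 0.987, 0.184, 0.571 and 0.0929 FPKM) fell to the same range. Krt84, named here after its values were seen because it was the member without a call, was at 20.9, 18.9, 28.4 and 20.4 FPKM in WT and at 9.02, 27.4, 18.7 and 9.61 FPKM among the libraries labelled cKO (−0.55, SE 0.33, adjusted p = 0.185). It is a keratin of hair cuticle and tongue papillae. Among the keratin-associated proteins, which cross-link keratin in the shaft, Krtap8-1 was at 644, 762, 1001 and 728 FPKM in WT and at 40.3, 2.26, 19.7 and 0.58 FPKM among the libraries labelled cKO (−6.57, SE 0.91, adjusted p = 0.000873). Replicates 1 and 3 were again the highest of the 4. Krtap15 (−6.60, SE 0.69, adjusted p = 0.000179), Krtap7-1 (−6.505, SE 0.69, adjusted p = 0.000198) and Krtap16-4 (−6.28, SE 0.59, adjusted p = 0.000102) changed by about as much. Keratin-associated proteins include near copies between which the quantification may have split reads. Outside the hair lists the largest fall was that of S100a3, a calcium-binding protein of the hair cuticle, at 309.7, 345, 458 and 361 against 13.9, 4.4, 7.85 and 5.46 FPKM (−5.47, SE 0.30, adjusted p = 5.73e-06). Vsig8 (−5.18, SE 0.20, adjusted p = 1.59e-06), Ly6g6d (−5.03, SE 0.31, adjusted p = 9.9e-06) and Prr9 (−4.94, SE 0.62, adjusted p = 0.000502) followed.

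The regulators that drive the hair matrix fell as well, by less. Of 29 tested transcription factors and signals, 18 were lower and none higher (median −1.31; 17 lower, 1 higher and a median of −0.61 after removal of the GC trend). Hoxc13, the homeobox factor that switches on hair keratins, was at 22.1, 22.9, 28 and 24.6 FPKM in WT and at 0.813, 2.03, 1.92 and 1.49 FPKM among the libraries labelled cKO. Every library was far below WT (−3.33, SE 0.19, adjusted p = 6.88e-06). Dlx3, which acts in the matrix and the sheath, went from 43, 40.8, 52.1 and 44.4 to 1.68, 5.68, 5.33 and 5.57 FPKM (−3.14, SE 0.29, adjusted p = 9.97e-05), and Msx2 from 17.9, 17.8, 24.2 and 20.2 to 1.22, 2.97, 2.37 and 2.71 FPKM (−2.69, SE 0.21, adjusted p = 3.76e-05). The nuclear corepressor hairless (Hr) was at 142, 146, 152 and 144 against 2.66, 41.1, 39.4 and 39.7 FPKM, where replicate 1 alone fell below 10 FPKM (−2.71, SE 0.72, adjusted p = 0.0146, and −1.70 after removal of the GC trend).

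Bulge and outer root sheath genes, which mark the stem cell region of the follicle, had 12 of 18 members lower (median −1.20; 9 lower and −0.52 after removal of the GC trend). Lgr5, a receptor of follicle stem cells, was at 12, 10.3, 12.9 and 13 FPKM in WT and at 2.02, 3.76, 1.3 and 2.41 FPKM among the libraries labelled cKO. No library overlapped, and the change was −1.996 (SE 0.22, adjusted p = 0.000237), or −1.99 after removal of the GC trend. Lhx2, a homeobox factor of the bulge, went from 26.6, 28.9, 28.4 and 26.4 to 2.03, 5.16, 3.97 and 4.75 FPKM (−2.57, SE 0.22, adjusted p = 6.68e-05). Tbx1 (−2.79, SE 0.42, adjusted p = 0.00129) and Tcf7l1 (−2.43, SE 0.43, adjusted p = 0.00292) changed by −1.55 and −1.61 once the GC trend was removed.

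The dermal papilla list was mixed, with 9 of 17 lower and 2 higher. Wif1, a secreted Wnt inhibitor, was at 44.4, 52.8, 45.4 and 38.4 FPKM in WT and at 363, 225, 464 and 342 FPKM among the libraries labelled cKO, so that all 4 stood well above WT (2.88, SE 0.22, adjusted p = 3.6e-05). Corin, a papilla protease, rose from 1.18, 1.42, 1.49 and 1.39 to 3.71, 5.65, 7.33 and 6.64 FPKM (1.496, SE 0.18, adjusted p = 0.00043), the other member called higher. Sox18 (−1.82, SE 0.32, adjusted p = 0.0027) and the Wnt inhibitor Notum (−1.46, SE 0.33, adjusted p = 0.00827) were lower, and changed by −0.86 and −0.65 after removal of the GC trend. Of 12 melanocyte genes, 6 were lower and none higher (3 after removal of the length trend or without WT replicate 1, and 2 without WT replicate 4). Trpm1 was at 9.79, 12.3, 9.94 and 10.2 against 4.87, 7.12, 4.68 and 2.54 FPKM (−1.05, SE 0.24, adjusted p = 0.00801), and the other members called lower lay between −1.59 for Sox10 (−0.52 after removal of the GC trend) and −0.62.

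**Figure D3:**
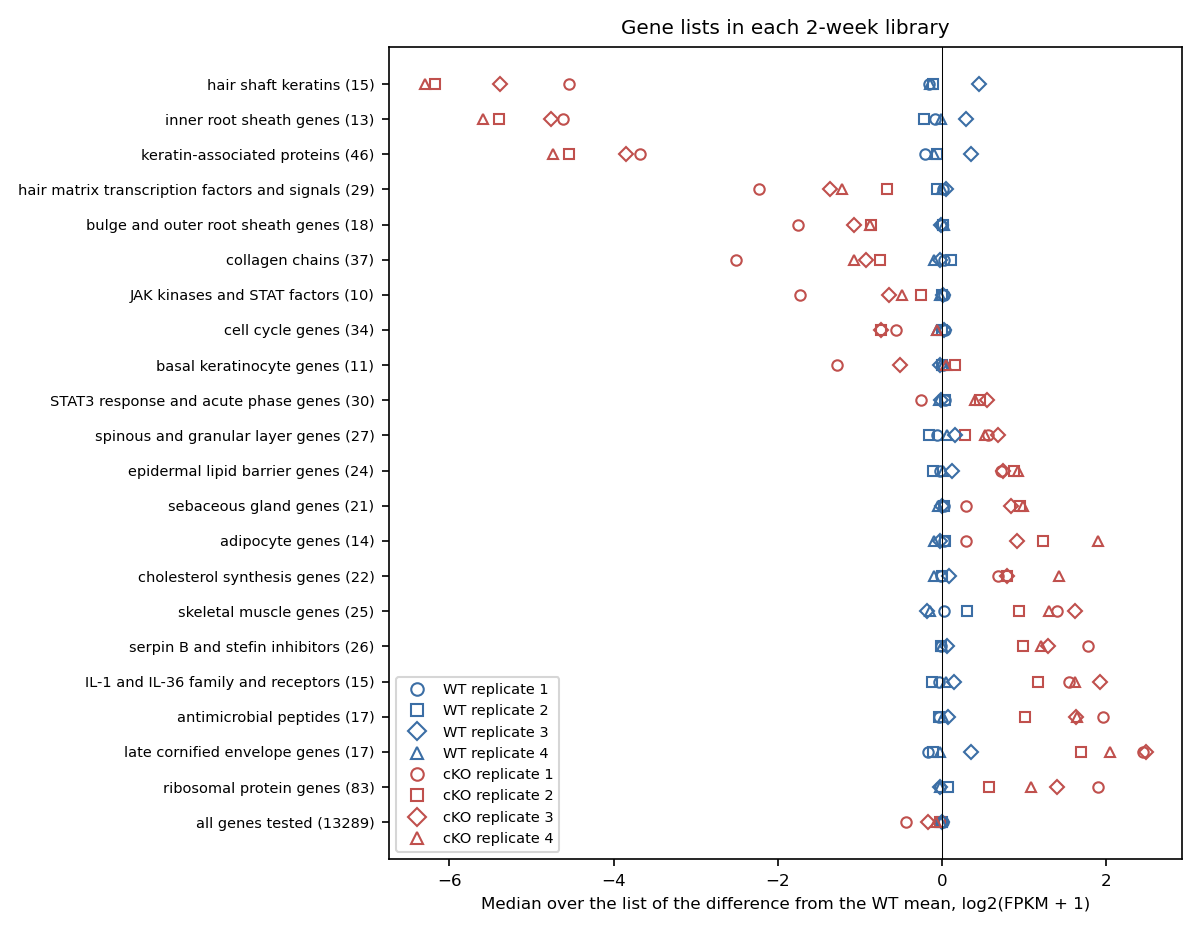
Median over the tested members of 21 gene lists and of all tested genes (rows, number in brackets) of the difference from the WT mean in log2(FPKM + 1) (horizontal axis), for each of the 8 libraries. Blue symbols are WT and red symbols libraries labelled cKO. The 3 lists of hair products lie below −3.6 in all 4 libraries labelled cKO, and the late cornified envelope list lies above 1.6 in all 4.

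Genes of the outermost epidermis were higher in the same libraries. All 17 tested late cornified envelope genes, which encode proteins of the dead outer layer, were called higher, against 21.9% of all genes, with a median of 2.19 (2.63 after removal of the GC trend). Lce1l was at 44.9, 45.9, 68.3 and 45.2 FPKM in WT and at 383, 219.9, 362 and 306 FPKM among the libraries labelled cKO. WT replicate 3 was the highest of WT and still more than 3 times lower than the lowest library labelled cKO (2.61, SE 0.22, adjusted p = 5.95e-05). Lce1k (2.58, SE 0.22, adjusted p = 6.03e-05) and Lce1h (2.57, SE 0.22, adjusted p = 6.98e-05) rose alike, and as near copies they may share reads. Of 27 spinous and granular genes 13 were higher and 1 lower, with a median of 0.59 (0.94 after removal of the GC trend). Hornerin (Hrnr), a filaggrin-like envelope protein, was at 28.1, 19.8, 36 and 30.3 FPKM in WT and at 262, 293, 313 and 282 FPKM among the libraries labelled cKO. The 4 values lay within a narrow range, about 10 times the WT mean (10.1-fold; 3.31, SE 0.18, adjusted p = 6.16e-06). The desmosomal cadherin Dsc1 was at 19.7, 12.3, 23.4 and 24 against 93.2, 78.7, 95.4 and 118 FPKM (2.25, SE 0.22, adjusted p = 0.000146) and Krtdap, a marker of differentiation, at 1619, 1474, 1792 and 1713 against 10862, 3927, 7329 and 6616 FPKM (2.03, SE 0.30, adjusted p = 0.00119). Filaggrin 2 (Flg2) rose too, from 52.2, 37.4, 63 and 58.8 to 155, 171, 162 and 163 FPKM (1.63, SE 0.17, adjusted p = 0.000203).

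Basal keratinocyte genes were called in neither direction in most cases. Of 11 tested 1 was higher and 1 lower, 3 were higher without cKO replicate 1, 4 were lower in the libraries with Xist, and the median was −0.38 (−0.11 after removal of the GC trend). Krt14 was at 4321, 2505, 2877 and 3981 FPKM among the libraries labelled cKO, all above the WT values given at the start (1.02, SE 0.22, adjusted p = 0.00641, and 1.68 after removal of the GC trend). Krt5 encodes the keratin of the cells in which Socs3 was to be deleted. It was at 2197, 2374, 2270.3 and 2233 FPKM in WT and at 838, 2545, 1548 and 2735 FPKM among the libraries labelled cKO, which lay on both sides of WT (−0.39, SE 0.36, adjusted p = 0.375). A list of stress-associated keratins and related genes, connexins among them, moved both ways, with 3 of 10 higher and 5 lower. Not every member is a keratin of wounded skin. Krt24 went from 1.58, 1.62, 1.45 and 1.39 to 13.3, 70.9, 33.2 and 57.1 FPKM (3.91, SE 0.44, adjusted p = 0.000278) and Fabp5, a fatty acid carrier, from 369, 393, 396 and 373 to 1267, 614, 898 and 1033 FPKM (1.27, SE 0.22, adjusted p = 0.00264). Connexin 26 (Gjb2), in contrast, was at 80, 76.2, 97.9 and 81.9 FPKM in WT and at 2.5, 7.36, 3.76 and 4.4 FPKM among the libraries labelled cKO (−4.01, SE 0.25, adjusted p = 9.86e-06), and connexin 30 (Gjb6) was lower as well (−1.54, SE 0.16, adjusted p = 0.00017).

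Small proline-rich genes, a family of envelope precursors of stressed epidermis, also divided. Sprr2d was at 0.654, 0.861, 1 and 0.145 FPKM in WT and at 1.83, 14.6, 7.16 and 10.6 FPKM among the libraries labelled cKO (2.30, SE 0.47, adjusted p = 0.00535), while Sprr1a was at 716, 722, 823 and 875 against 243, 191, 173 and 192 FPKM (−1.97, SE 0.16, adjusted p = 4.76e-05). Both groups were apart in each gene, in opposite directions. Of 8 tested, 3 were higher and 2 lower, and 1 of the lower calls, Sprr4 (−0.96, SE 0.28, adjusted p = 0.022), was lost with median-of-ratios scaling (−0.90), after removal of the GC trend (adjusted p = 0.129) and without WT replicate 2, 3 or 4 or cKO replicate 4.

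Defence genes of the epidermis rose together. Of 17 tested antimicrobial peptides 14 were higher and 1 lower, with a median of 1.61. S100a8 was at 10.4, 5.93, 4.57 and 5.87 FPKM in WT and at 164, 216, 118 and 234 FPKM among the libraries labelled cKO, and its partner S100a9 at 6.87, 3.1, 7.56 and 3.4 against 88.9, 139, 87.5 and 192 FPKM. The 2 proteins form calprotectin, a metal-binding complex of stressed keratinocytes and of neutrophils, and they rose 27.4-fold and 24.2-fold on the means (4.59, SE 0.28, adjusted p = 9.21e-06 and 4.36, SE 0.33, adjusted p = 3.6e-05). Neutrophil markers were close to absent: of 13 in the files 3 were tested, the other 10 did not exceed 1.6 FPKM in any library, and the summed list was at 8.13 to 9.3 FPKM in WT and at 4.64 to 11.6 FPKM among the libraries labelled cKO. Ngp, a granule protein of neutrophils, stayed below 0.1 FPKM in all 8. The beta-defensin Defb14 was at 1.22, 1.84, 0 and 1.08 against 40.5, 12.3, 30.8 and 26.5 FPKM (3.79, SE 0.41, adjusted p = 0.000211). The member called lower was S100a7a, a psoriasin relative, with 17.1, 15.8, 24.4 and 19.4 FPKM in WT and at 0.375, 0.45, 0.776 and 0.101 FPKM among the libraries labelled cKO (−3.83, SE 0.19, adjusted p = 3.45e-06). In the S100 family as a whole 10 of 13 were higher and 2 lower, and 6 were higher without WT replicate 1, 3 or 4 or cKO replicate 3.

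The promoter windows of S100a8 and S100a9 are shown as those of the largest rises. They lie at chr3:90668821-90669120 on the plus strand and chr3:90695672-90695971 on the minus strand of GRCm38.p6, and each holds 1 TATAAA (capitals), in S100a9 at the annotated start itself and in S100a8 30 bases before it, and none of the other motifs.
S100a8: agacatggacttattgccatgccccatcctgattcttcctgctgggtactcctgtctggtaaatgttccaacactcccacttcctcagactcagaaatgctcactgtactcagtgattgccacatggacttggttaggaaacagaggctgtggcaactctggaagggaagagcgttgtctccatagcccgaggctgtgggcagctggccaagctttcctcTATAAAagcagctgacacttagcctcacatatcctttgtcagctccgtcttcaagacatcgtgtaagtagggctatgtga
S100a9: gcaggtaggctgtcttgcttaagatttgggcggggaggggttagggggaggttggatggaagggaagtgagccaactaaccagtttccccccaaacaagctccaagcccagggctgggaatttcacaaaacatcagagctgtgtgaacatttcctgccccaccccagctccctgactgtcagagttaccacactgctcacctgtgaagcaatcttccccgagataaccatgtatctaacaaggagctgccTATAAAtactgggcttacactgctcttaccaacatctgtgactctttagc
A TATA box was in 3 of 12 windows of S100 genes and 3 of 16 of antimicrobial peptides (18.8%), beside 14.2% of all.

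Among IL-1 and IL-36 genes, alarm cytokines of the epidermis and their receptors, 13 of 15 members were higher and none lower, with a median of 1.65. The IL-36 genes Il1f8 (3.86, 4.41, 5.74 and 6.35 against 71.7, 36.5, 61.8 and 53.4 FPKM; 3.20, SE 0.23, adjusted p = 2.47e-05) and Il1f6 (2.18, 2.94, 3.06 and 3.66 against 32.1, 19, 39.8 and 31.1 FPKM; 2.96, SE 0.23, adjusted p = 3.92e-05) had the largest changes. Replicate 2 was the lowest of the libraries labelled cKO in both, and still above every WT library. Il1f9, the third IL-36 agonist, rose from 10.7, 7.92, 11.7 and 10.1 to 64.7, 44, 59.6 and 56.6 FPKM (2.36, SE 0.17, adjusted p = 2.47e-05). Il33, an alarmin stored in the nucleus that acts on type 2 immune cells, was at 3.2, 3.43, 3.44 and 2.27 against 29.8, 19, 27.9 and 44.9 FPKM (2.89, SE 0.25, adjusted p = 6.29e-05). Of 10 type 2 and alarmin genes, 5 were higher and none lower, Tslp among them (0.87, SE 0.21, adjusted p = 0.0112), whose call was lost after removal of the GC trend (0.31, adjusted p = 0.148). By contrast, the IL-17 and IL-23 axis had 1 of 8 members lower, Il17ra (−1.23, SE 0.32, adjusted p = 0.0134, and −0.79 after removal of the length trend), and none higher, while 3 were higher after removal of the GC trend. The 7 untested members of that axis, Il17a and Il23a among them, did not exceed 0.61 FPKM in any library.

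Inhibitors of proteases in the upper epidermis rose in 21 of 26 cases and fell in 2 (median 1.30). Serpinb7 was at 10.1, 9.55, 13.3 and 10.2 FPKM in WT and at 141, 66.8, 106 and 114 FPKM among the libraries labelled cKO (3.16, SE 0.23, adjusted p = 2.47e-05) and Serpinb2 at 17.2, 16.6, 17.5 and 15 against 154, 84.7, 121 and 166 FPKM (2.87, SE 0.21, adjusted p = 2.68e-05). Spink5, the inhibitor of kallikreins, rose from 30.4, 26.3, 32.2 and 34.2 to 188, 126, 190.1 and 185 FPKM (2.43, SE 0.17, adjusted p = 2.19e-05). The 4 libraries labelled cKO were above all WT libraries in each of the 3. Stfa3, a stefin, went the other way, from 347, 347, 428 and 399.6 to 98.4, 47.1, 51.4 and 64.3 FPKM (−2.58, SE 0.23, adjusted p = 7.86e-05). The kallikreins themselves, proteases that loosen the outer layer, had 3 of 9 higher and 3 lower, of which 1 was lower after removal of the GC or length trend. Klk5 (0.64, SE 0.14, adjusted p = 0.00621) and Klk9 (0.93, SE 0.15, adjusted p = 0.00181) were higher, and changed by 1.26 and 1.41 after removal of the GC trend, and the Klk5 call was lost when all 22 libraries shared 1 fit. Klk15 was lower (−1.79, SE 0.11, adjusted p = 9.39e-06, and −1.10 after removal of the GC trend).

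**Figure D4:**
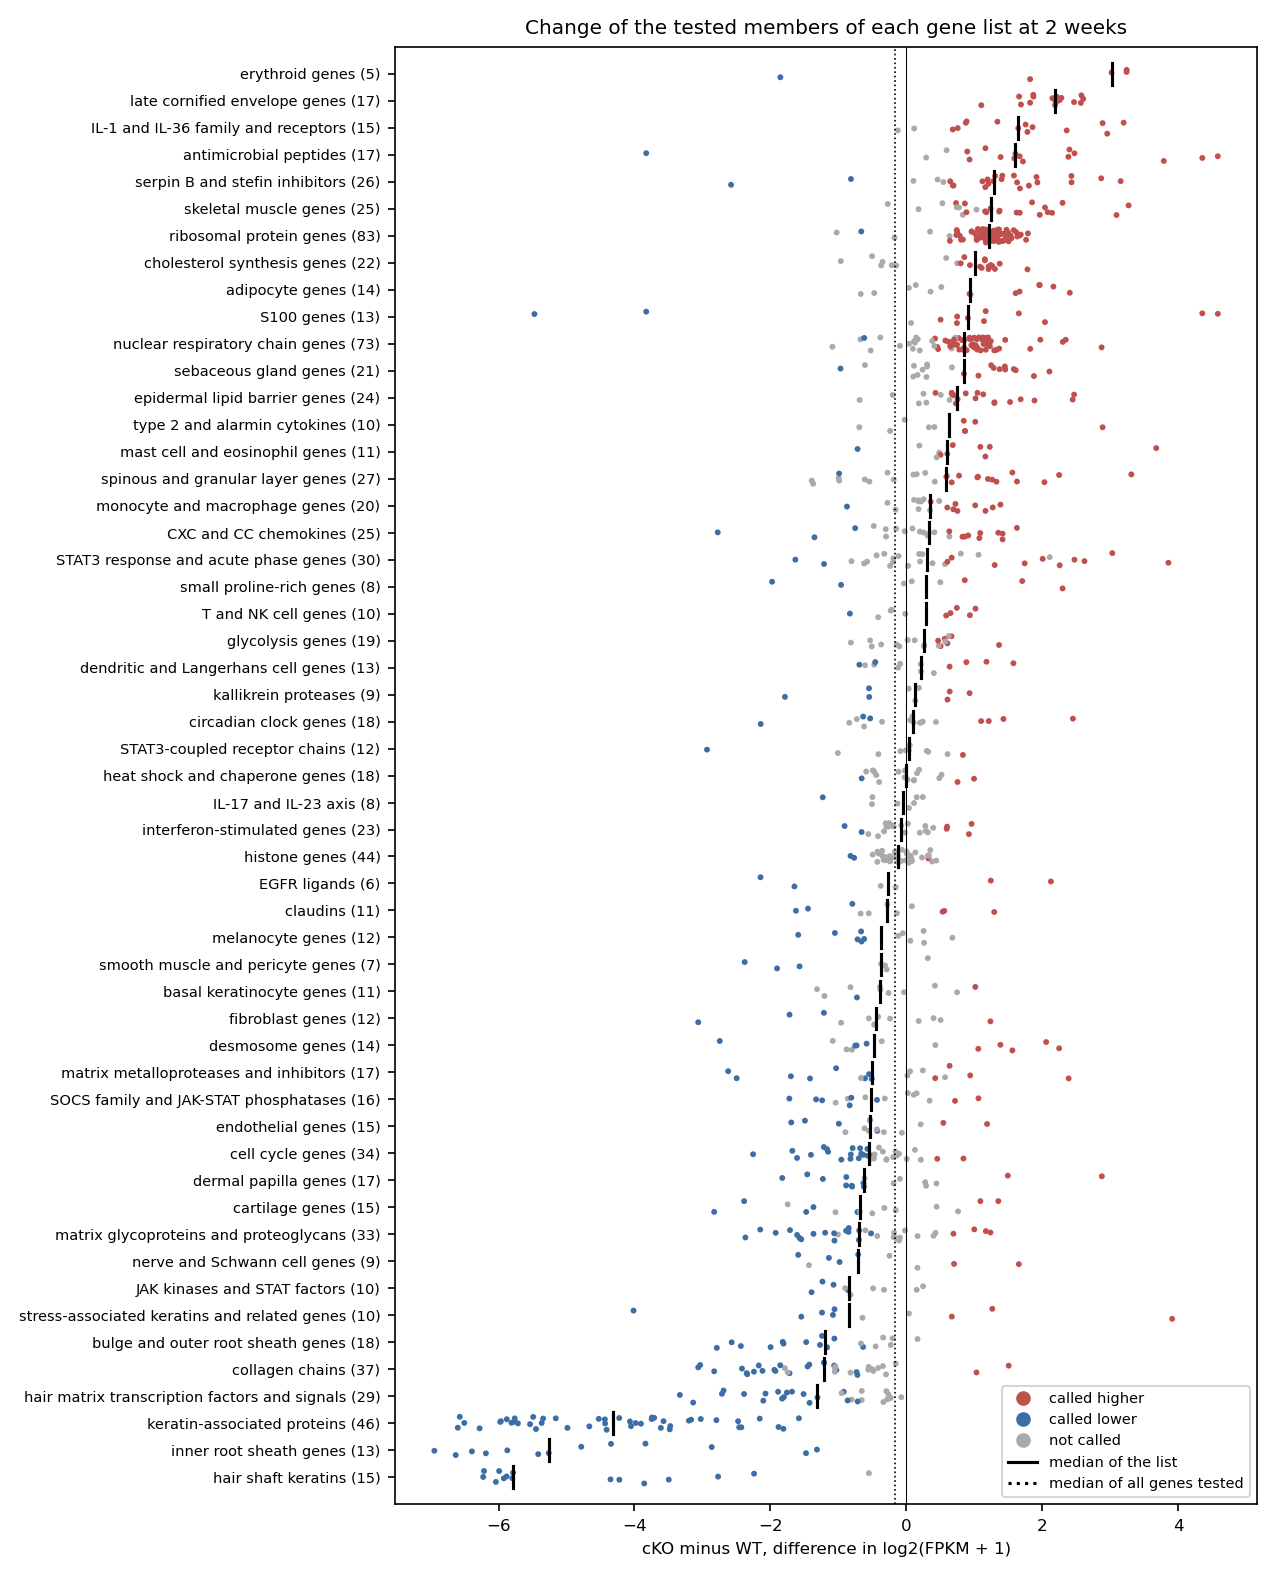
Change between the groups in log2(FPKM + 1) (horizontal axis) of every tested member of each gene list (rows, number of members in brackets). Red points were called higher and blue points lower in the libraries labelled cKO, grey points were not called, the bar is the median of the list and the dotted line the median of all tested genes, −0.17. The 3 lists of hair products at the bottom reach below −6, and late cornified envelope, IL-1 family and antimicrobial lists near the top lie almost wholly to the right of 0.

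Lipid genes of the epidermis and the sebaceous gland were higher. Of 24 enzymes and transporters of the epidermal lipid barrier, 17 were higher and none lower (median 0.74). Lipk, an acid lipase of the granular layer, was at 4.07, 4.47, 5.37 and 5.14 FPKM in WT and at 37.6, 21.6, 34.2 and 30.5 FPKM among the libraries labelled cKO (2.45, SE 0.19, adjusted p = 3.59e-05), and Abca12, the lipid pump of lamellar granules, at 6.05, 4.76, 6.31 and 6.05 against 19.3, 21.8, 18.8 and 23.5 FPKM (1.68, SE 0.14, adjusted p = 6.04e-05). No group overlapped in either gene. Of 22 genes of cholesterol synthesis 14 were higher and none lower (median 1.01), Sc4mol, a sterol oxidase, going from 81.9, 85.2, 85.5 and 78.1 to 388, 213, 267 and 307 FPKM (1.78, SE 0.19, adjusted p = 0.000184). Cyp51 (1.38, SE 0.17, adjusted p = 0.000502) and Fdft1, the first enzyme on the sterol branch (1.27, SE 0.22, adjusted p = 0.00238), rose with it. Of 21 sebaceous gland genes 11 were higher and 1 lower, and 18 were higher without cKO replicate 1. Scd1, the desaturase of sebum, went from 294, 269.9, 262 and 271 to 886, 1415, 992 and 1587 FPKM (2.11, SE 0.21, adjusted p = 0.000145), and the wax synthase Awat1 from 30, 34.4, 33.8 and 29.2 to 81.8, 84, 99.8 and 130.4 FPKM (1.58, SE 0.17, adjusted p = 0.000222). Adipocyte markers moved with them: 7 of 14 were higher and none lower, and their summed level was 379 to 423 FPKM in WT and at 787, 774, 849 and 1433 FPKM among the libraries labelled cKO. Retn, an adipocyte hormone, was at 1.19, 2.11, 0.859 and 1.88 against 7.76, 9.96, 8.97 and 29.3 FPKM, highest in replicate 4 (2.41, SE 0.38, adjusted p = 0.00165). The part of fat tissue in the lipid results was not tested.

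Many collagen chains and matrix proteins of the dermis were lower. Of 37 collagen chains 21 were lower and 2 higher (median −1.21; −0.66 with again 21 lower and 2 higher after removal of the GC trend). Col1a1 was at 223, 648, 655 and 483 FPKM among the libraries labelled cKO, far below the WT values given at the start (7.73-fold lower on the means; −3.06, SE 0.34, adjusted p = 0.000237). Replicate 1 was the lowest. Col15a1, a basement membrane collagen, was at 63.7, 70.2, 62.4 and 53.9 against 1.8, 11.7, 9.64 and 8.49 FPKM (−3.03, SE 0.42, adjusted p = 0.000898). Col2a1, the collagen of cartilage, was at 141, 212, 179 and 119 against 9.47, 31.1, 52.4 and 13.4 FPKM (−2.83, SE 0.47, adjusted p = 0.0022, and −1.82 after removal of the GC trend), and Col18a1 changed by −2.42 as deposited and −1.47 once that trend was removed. Of 33 glycoproteins and proteoglycans 17 were lower and 4 higher (2 higher after removal of the GC trend, with Eif2s3y as a covariate and without WT replicate 1, 3 or 4 or cKO replicate 3). Fbn2, a microfibril protein of growing tissue, was at 34, 34, 36.3 and 35.9 against 6.99, 11.5, 9.25 and 7.03 FPKM (−1.92, SE 0.17, adjusted p = 7.19e-05). Tenascin X (Tnxb) changed by −2.37 (SE 0.42, adjusted p = 0.00285), and by −1.41 after removal of the GC trend. Not every fibroblast product fell: of 12 fibroblast markers 3 were lower, all collagen chains, and 1 higher (5 lower without cKO replicate 1). The gene called higher was decorin (Dcn), a collagen-binding proteoglycan, with 840.1, 907, 782 and 824 FPKM in WT and at 3317, 1260.0, 2129.5 and 1720.3 FPKM among the libraries labelled cKO (1.24, SE 0.28, adjusted p = 0.00787). Of 17 metalloproteases and their inhibitors 8 were lower and 4 higher (1 higher without WT replicate 3 or 4, and 5 lower without WT replicate 1 or 2 or after removal of the length trend). Mmp14, a collagenase of the cell surface, was at 178, 192, 180.5 and 177 against 5.58, 53.7, 44.9 and 46.1 FPKM (−2.62, SE 0.60, adjusted p = 0.00841) and Mmp11 at 28.1, 32.3, 30.3 and 30.1 against 2.1, 8.43, 7.78 and 2.64 FPKM (−2.496, SE 0.36, adjusted p = 0.00107), while the inhibitor Timp4 rose from 5.02, 5.33, 3.48 and 3.81 to 23.1, 23, 38.5 and 26.1 FPKM (2.39, SE 0.20, adjusted p = 6.34e-05).

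Cell cycle genes were lower in 18 of 34 cases and higher in 2 (median −0.54), beside 28.9% and 21.9% of all genes. Ube2c, a ubiquitin enzyme of mitotic exit, was at 21.8, 24.1, 23.7 and 21.9 FPKM in WT and at 1.9, 5.88, 2.88 and 7.1 FPKM among the libraries labelled cKO (−2.25, SE 0.31, adjusted p = 0.000776), and Aurkb, a mitotic kinase, at 10.5, 12, 12.3 and 10.7 against 0.842, 4, 2.28 and 6.33 FPKM (−1.68, SE 0.37, adjusted p = 0.00702, and −0.88 with array quality weights). The libraries labelled cKO replicates 2 and 4 were the highest of that group and below all of WT in both genes. Cenpa, the histone of centromeres, was lower too (−1.40, SE 0.25, adjusted p = 0.00312). With the length trend removed, 12 of the 34 were called lower, beside 24.9% of all genes. The count was also 12 without any 1 WT library (19.3% to 20.1% of all genes) or cKO replicate 3 (23.4%). It was 24 without cKO replicate 4 (26.4%). In the libraries with Xist it was 13, beside 40% of all genes, so the count there is not read as a result about the list.

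Genes of ribosomes, mitochondria, muscle and blood were higher. Of 83 ribosomal protein genes 78 were called higher and 1 lower (median 1.22), Rps25 for example going from 417, 454, 386 and 435 to 2484, 859, 1602 and 1344 FPKM (1.79, SE 0.29, adjusted p = 0.00197). Here, as in the share of FPKM given above, replicate 1 was the highest library and replicate 2 the lowest of those labelled cKO. Of 73 nuclear genes of the respiratory chain 56 were higher and 1 lower (median 0.85). The largest rise was in Cox8b, with 14.2, 11.8, 10.8 and 14.7 against 146, 56.5, 125 and 96.9 FPKM (2.88, SE 0.28, adjusted p = 0.00012), followed by Cox6a2 (2.35, SE 0.32, adjusted p = 0.000744) and Cox7a1 (2.30, SE 0.29, adjusted p = 0.000512), which are the isoforms of muscle and brown fat. Skeletal muscle markers rose in 18 of 25 cases with none lower, and their summed level was 1193 to 1782 FPKM in WT and at 2892 to 5562 FPKM among the libraries labelled cKO. Ckmt2, the mitochondrial creatine kinase of muscle, was at 1.28, 3.39, 1.39 and 1.45 against 33.5, 20.4, 29.9 and 21.5 FPKM (3.27, SE 0.26, adjusted p = 3.95e-05), and myoglobin (Mb) at 4.32, 4.91, 2.63 and 3.58 against 31.1, 26.2, 45.3 and 68.1 FPKM (3.10, SE 0.30, adjusted p = 0.000114). How much of the respiratory chain result came from muscle was not tested. The globin genes Hba-a1 and Hba-a2, near copies that may share reads, were at 172, 169, 193 and 168 and 164, 159, 183 and 158 FPKM in WT, and at 2767, 1024, 2417 and 1132 and 2625, 970.2, 2295 and 1064 FPKM among the libraries labelled cKO (3.24, SE 0.33, adjusted p = 0.000161 and 3.25, SE 0.33, adjusted p = 0.000163). Beta-globin (Hbb-b1) rose with them (3.02, SE 0.34, adjusted p = 0.000271), whereas the red cell membrane transporter Slc4a1 was at 3.43, 3.04, 3.62 and 2.95 against 0.123, 0.0973, 0.37 and 0.138 FPKM (−1.85, SE 0.11, adjusted p = 8.83e-06).

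Markers of immune and vascular cells moved by less. Of 20 monocyte and macrophage genes 9 were higher and 1 lower, with Ly6c1 (61.8, 59.6, 54.2 and 51.9 against 217, 107, 152 and 143 FPKM; 1.39, SE 0.21, adjusted p = 0.00123) and lysozyme Lyz2 (137, 167, 146 and 133 against 558, 212, 356 and 273 FPKM; 1.17, SE 0.28, adjusted p = 0.00923) among the largest changes. Their summed level was 506 to 573 FPKM in WT and at 694 to 1339.6 FPKM among the libraries labelled cKO. Langerin (Cd207), the marker of epidermal Langerhans cells, rose from 8.77, 6.9, 6.31 and 8.27 to 30.7, 20, 26.6 and 21.7 FPKM (1.58, SE 0.18, adjusted p = 0.000263). Of 13 dendritic cell genes, 4 were higher and 2 lower, beside 21.9% and 28.9% of all genes, so the count is not read as a dendritic cell result. After removal of the GC trend 6 were higher and none lower, beside 25% and 24.9%. Without cKO replicate 2, 3 were lower, beside 36.3%. Of 11 mast cell and eosinophil genes 7 were higher and 1 lower, led by Ear5, an eosinophil ribonuclease with near copies, at 4.08, 7.3, 8.77 and 5.59 against 80.6, 83.5, 66.3 and 157 FPKM (3.68, SE 0.29, adjusted p = 4.54e-05). The T cell receptor chain Cd3g rose from 11.7, 10.5, 9.17 and 14.6 to 36.2, 18.9, 25 and 19.3 FPKM (1.02, SE 0.23, adjusted p = 0.00781), and Cd4 was at 2.81, 2.72, 2.45 and 2.46 against 0.951, 1.67, 0.762 and 0.846 FPKM (−0.83, SE 0.14, adjusted p = 0.00257, and −0.55 after removal of the GC trend). Of 15 endothelial genes 2 were higher and 5 lower, beside 21.9% and 28.9% of all genes, so the count is not read as a vascular result. After removal of the GC trend 3 were lower, beside 24.9% of all genes, and 9 in the libraries with Xist, beside 40%. Cdh5, the cadherin of vessel junctions, was at 18.9, 19.6, 19.5 and 17.6 against 2.2, 9.66, 7.92 and 7.26 FPKM (−1.49, SE 0.34, adjusted p = 0.008), and Emcn was higher (1.19, SE 0.21, adjusted p = 0.00268). The count of lower endothelial genes was 2 without any 1 WT library, beside 19.3% to 20.1% of all genes. It was also 2 without cKO replicate 3 or 4 (23.4% and 26.4% of all genes), and 9 without cKO replicate 2 (36.3%). Abpa, named by size of change alone, was listed at 0, 0, 0.698 and 0 FPKM in WT and at 22.6, 14.7, 26.4 and 10.3 FPKM among the libraries labelled cKO (4.01, SE 0.30, adjusted p = 3.18e-05).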

How the data were processed

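Total RNA of ear specimens was made into TruSeq libraries and sequenced as single-end 50-base reads, per the labels' protocols. The authors deposited 1 table of FPKM per library, and per the submitters' processing notes the tools were TopHat2 2.1.0 and Cufflinks and the build mm9, with no role stated for each. FPKM carry no depth, and relative depth read from the steps of low values spanned 1 to 1.43 across the 8 libraries. The library kit does not mark strand, so overlapping antisense genes cannot be told apart. Values were taken as log2(FPKM + 1), kept where 4 of 8 libraries reached 1 FPKM, and compared with limma 3.58.1 in R 4.3.3 with an intensity trend. Adjusted p-values of the main comparison are Benjamini-Hochberg values over the 13289 genes tested in that limma fit, with 4 libraries a group. Those given for an alternative come from its own fit, over the genes tested there (13175 with the GC or length trend removed). The fit within the libraries with Xist, and those without 1 library, had fewer than 4 libraries in at least 1 group. In data simulated on these 13289 genes, 59% of 100 genes changed by 1 on the log2 scale and 85% of 100 changed by 2 were recovered, with 7 false calls. Far fewer genes were changed there than the 50.9% called in the data. Values were drawn independently for each gene, with the same spread in both groups and no GC trend. These rates therefore check the code and do not describe recovery or false calls in this comparison. Alternatives were other pseudocounts, filters and scaling, a fit over 22 libraries, weights for library quality, a block for the replicate number, Eif2s3y as a covariate, removal of a loess trend on transcript length, and each library left out. Removal of a loess trend on transcript GC content was chosen after seeing the data. GC content and length are medians over the GENCODE transcripts (GRCm38) that share a gene's symbol, found for 99.1% of tested genes.

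The comparison, the gene lists and their members were chosen with earlier results of these data known. Named genes are Socs3 and the 12 largest rises and 12 largest falls among called genes whose groups do not overlap. At most 3 of a family were taken, with no small RNA or unnamed models. These rises and falls also had to be called in the same direction with median-of-ratios scaling. Up to 4 called members of each list with the largest changes, and members of the signalling lists, are named too. No library held the values of another. Promoter windows came from RefSeq on GRCm38.p6, since the mm9 genome was not used here. Results for a few genes are not reported here.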

Additional observations from a re-analysis of the deposited data

Results flagged for a closer look

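In 7 of 50 groups of 4 libraries examined, among Socs3 and the genes with the largest changes, the gap between an extreme library and its nearest neighbour passed Dixon's 95% critical value for 4, which chance gives in about 1 in 20 groups. These groups share the same 8 libraries and are not independent, so the count of 7 cannot be weighed against that rate. All 7 were WT groups. Socs3 was lowest in WT replicate 4, at 9.71 FPKM, with the other 3 between 10.2 and 10.3. Abpa, listed at 0 in the other 3, was at 0.698 FPKM in WT replicate 3, and with 3 equal values any other value passes. The muscle genes were highest in WT replicate 2, Ckmt2 at 3.39 FPKM and Myoz2, a protein of the muscle Z-disc, at 3.90 FPKM. In WT replicate 3, Hba-a1 was at 193 FPKM, the keratin-associated gene Krtap15 at 389 FPKM and Ly6g6d at 97.6 FPKM, each the highest of the 4. In each of these genes except Socs3 the libraries labelled cKO lay beyond all 4 WT values. Myoz2 was at 2.14, 3.9, 1.96 and 1.82 FPKM in WT and at 39.8, 16.7, 47.9 and 29.6 FPKM among the libraries labelled cKO (3.26, SE 0.32, adjusted p = 0.000139 by limma).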

How the results depend on the processing

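The counts of genes called at 2 weeks were within 1.5 times of 6758 (2916 higher and 3842 lower) under all alternatives except the following. Array quality weights, which gave the library labelled cKO replicate 1 a weight of 0.0388, called 10419 genes, 4684 of them higher. A change of at least 1 on the log2 scale as well left 923 higher and 2010 lower. With 1 library left out, 4715 to 8230 genes were called, 2125 to 3573 higher and 2565 to 4826 lower, fewest without a WT library. Of the 53 lists, those with 50% or more of their members called higher numbered 16 (12 to 18 with 1 library left out), and those called lower 11 (8 to 15 with 1 library left out, 17 with array weights and 7 after removal of the length trend). Socs3 changed by −1.13 with array weights, by 0.22 after removal of the GC trend, and by −1.24 to −0.38 with 1 library left out. The histone gene Hist1h2bf changed from −0.77 to 0.14 after removal of the GC trend, the only named gene beside Socs3 to change sign, and 17 other named genes lost their call there. Leaving out 1 library ended the call of 1 to 15 of 204 named genes. The named genes of the hair, bulge, late cornified envelope and antimicrobial lists kept direction and call under all of these. Apart from Socs3, named genes were chosen by their call and size of change in the main fit. How many kept their call is therefore partly set by that choice and is no independent check. In the 5 libraries with Xist, an alternative added after seeing the data, Socs3 changed by −0.53, and 204 of 204 named genes kept direction and call. The cause of each difference was not tested. With the replicate number as a block, 2294 genes were called higher and 3432 lower, and 7 of 204 named genes lost their call. These numbers do not pair the libraries: the deviations of same-numbered libraries from their group means correlated at 0.025, −0.096, 0.039 and −0.0082. The deposited values give no read counts, so no interval for counting error was computed.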

Other observations

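Ligands of the EGF receptor, which drive growth and differentiation of keratinocytes, moved in opposite directions. Of 6 tested, 2 were higher and 2 lower, beside 21.9% and 28.9% of all genes. Tgfa was at 14.8, 12.2, 16.1 and 16.5 FPKM in WT and at 1.63, 3.75, 2.48 and 2.76 FPKM among the libraries labelled cKO (−2.14, SE 0.20, adjusted p = 9.65e-05 by limma), and Areg, amphiregulin, at 4.47, 4.78, 5.75 and 4.5 against 0.674, 0.911, 1.32 and 0.656 FPKM (−1.65, SE 0.14, adjusted p = 7.2e-05). Ereg, epiregulin, was at 1.74, 1.28, 2.15 and 1.76 against 11.8, 8.74, 13.6 and 9.92 FPKM (2.13, SE 0.17, adjusted p = 4.74e-05), and Btc, betacellulin, at 11.3, 7.61, 12.1 and 11.1 against 34.5, 25.9, 26.4 and 19.1 FPKM (1.24, SE 0.21, adjusted p = 0.00214). In all 4 genes the groups did not overlap. Among 14 desmosome genes 5 were higher and 4 lower (1 lower after removal of the length trend and 7 without cKO replicate 1). The cadherin of hair, Dsg4, was at 7.08, 4.77, 8.39 and 8.32 against 0.348, 0.0554, 0.236 and 0.149 FPKM (−2.74, SE 0.17, adjusted p = 1.16e-05), and that of upper epidermis, Dsg1b, at 14.7, 8.7, 11.3 and 17.7 against 36.3, 69.8, 51.3 and 75.5 FPKM (2.06, SE 0.28, adjusted p = 0.000729).

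Of 25 CXC and CC chemokines, which guide immune cells, 10 were higher and 3 lower (6 lower in the libraries with Xist). Cxcl14, a chemokine of healthy epidermis, was at 192, 184, 197 and 181 FPKM in WT and at 9.34, 33.8, 42.8 and 36.3 FPKM among the libraries labelled cKO, with no overlap (−2.77, SE 0.41, adjusted p = 0.00113). The lymphatic chemokine Ccl21a, with near copies that may share reads, was at 30.7, 32.7, 27.1 and 25.1 against 147, 57.2, 99.7 and 82 FPKM (1.63, SE 0.26, adjusted p = 0.0018). Interferon-stimulated genes had 4 of 23 higher and 2 lower (8 higher after removal of the GC trend, and 5 lower without cKO replicate 1 or 2, and 9 lower in the libraries with Xist), Ifit3 at 2, 2.17, 3 and 1.7 against 7.44, 4.29, 5.45 and 4.13 FPKM being the largest change (0.96, SE 0.20, adjusted p = 0.00531). Of 18 circadian clock genes 4 were higher and 3 lower (8 higher without cKO replicate 1 or after removal of the GC trend, 1 lower without any 1 WT library). In the libraries with Xist 7 were called in each direction. The chemokine, interferon and clock counts stand beside 21.9% higher and 28.9% lower of all genes. In the libraries with Xist those shares were 29.5% and 40%. The clock counts are not read as a result about the list. Rora, a nuclear receptor of the clock, was at 1.24, 0.651, 1.29 and 1.62 against 6, 19.6, 8.29 and 14 FPKM (2.45, SE 0.32, adjusted p = 0.00066), and Nfil3, a repressor of it, at 19.4, 19.1, 20.1 and 18.6 against 1.46, 5.07, 4.73 and 4.23 FPKM (−2.14, SE 0.27, adjusted p = 0.000547). Neither gene's groups overlapped, and the time of day of sampling is not given in the sources used here.

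Glycolysis genes had 6 of 19 higher and none lower, beside 21.9% and 28.9% of all genes. The count higher was 2 or 3 without 1 WT library (16% to 16.9% of all genes). It was 13 after removal of the GC trend (25%) and 11 in the libraries with Xist (29.5%). Eno3, the enolase of muscle, was at 37.9, 49.1, 32.5 and 35 against 128, 72.6, 119.7 and 89.4 FPKM (1.37, SE 0.21, adjusted p = 0.0016), beside the skeletal muscle markers that were higher in the same libraries. Of 15 cartilage genes 5 were lower and 2 higher, beside 28.9% and 21.9% of all genes, so the count is not read as a cartilage result. Sox9, 1 of the 5 called lower, was at 37.5, 39.5, 42.1 and 37 against 9.12, 13.8, 15.6 and 16.4 FPKM (−1.47, SE 0.18, adjusted p = 0.000482). Smtn, a smooth muscle protein, was at 59.2, 61.5, 61.5 and 64.3 against 3.64, 17.8, 13.3 and 15.8 FPKM (−2.38, SE 0.40, adjusted p = 0.00211, and −1.49 after removal of the GC trend). The glial and dendritic protein gene S100b was at 15.2, 21, 17.9 and 14.6 against 63.5, 34, 82.4 and 54.5 FPKM (1.66, SE 0.26, adjusted p = 0.00152). Of 9 nerve and Schwann cell genes 4 were lower and 2 higher, S100b among the latter, beside 28.9% and 21.9% of all genes. After removal of the GC trend 2 were lower, beside 24.9%. The 44 histone genes had 1 higher and 2 lower. After removal of the GC trend 16 were higher, beside 25% of all genes, and 7 in the libraries with Xist, beside 29.5%.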
